A study of Mus musculus with 12 samples.

Results

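Small nucleolar RNAs (snoRNAs) are short nuclear RNAs that guide the chemical modification and the processing of ribosomal RNA. Box C/D snoRNAs (symbols Snord) direct 2′-O-methylation with the methyltransferase fibrillarin, and box H/ACA snoRNAs (symbols Snora) direct pseudouridylation with dyskerin. Most vertebrate snoRNAs are cut out of introns, either of protein-coding genes, many of which encode ribosomal proteins and translation factors, or of non-coding host genes such as Gas5 and the Snhg family. Spliced Gas5 and several Snhg RNAs are known targets of nonsense-mediated decay when they are translated.

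The RNAs described here were chosen by their symbols and by their level: all rows of the deposited table named Snord, Snora, Snhg or Gas5 whose values summed to at least 50 over the 12 libraries. Of 130 rows with such a symbol, 114 reached this sum among 47359 genes in the table. They comprise 19 host genes, 58 box C/D snoRNAs and 37 box H/ACA snoRNAs. The summed value fixed who is a member, so the overall height of their levels is no finding. Just inside the minimum lay Snora16a at 62, Snhg7os at 65 and Snhg11 at 69, and just outside lay Snora19 at 44 and extra copies of Snord3b2 and Snord3b3 at 23 each.

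The libraries were made from TH17 cells, the CD4 T cells that secrete IL-17, that had been transferred into RAG2-/- mice, which lack T and B cells of their own. The donor cells carried the 2D2 T cell receptor, which recognises a myelin protein, and were either wild type (2D2-WT) or deficient for both cytokines (2D2-IL-17A/F-DKO, here DKO). CXCR6+ and SLAMF6+ cells were sorted from the central nervous system at the peak of experimental autoimmune encephalomyelitis, 1000 cells to a library. There were 5 libraries of WT CXCR6+ cells, 5 of WT SLAMF6+ cells, and 1 library each of DKO CXCR6+ and DKO SLAMF6+ cells. The labels give no age of the animals and do not say whether numbered libraries come from separate animals, so p-values measure the spread between these libraries, which may be technical. A change in a bulk library cannot tell fewer cells of a type from less RNA per cell.

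Library totals ran from 6818658 to 11635037 deposited units. In UPM, deposited units per 1000000 units of the scaled library total, Il17a stood at 185 to 483 in the 10 WT libraries, at 0 in the DKO CXCR6+ library and at 0.417 in the DKO SLAMF6+ library. The mRNA of the sort marker Cxcr6 overlapped between the WT groups: it ranged from 4.16 to 41.2 UPM in WT CXCR6+ and from 11.99 to 20 in WT SLAMF6+ libraries, and reached 375 and 156 in the DKO CXCR6+ and SLAMF6+ libraries. Slamf6 ran from 1.65 to 4.88 in WT CXCR6+ and from 5.82 to 11.57 in WT SLAMF6+ libraries, and stood at 74.4 and 249 in the DKO libraries. T cell markers were abundant in every library, while the summed microglia and macrophage, B cell, neuron and astrocyte lists reached at most 40.2 UPM; the oligodendrocyte list, at 62.8 to 245, was mostly Cnp, at 49.4 to 187. The DKO SLAMF6+ library alone held erythroid globin RNA, at 137600 UPM summed over 4 genes, against at most 2.04 in any other library. Mitochondrial RNA took 12.9% to 17.6% of WT CXCR6+ and 2.20% to 5.24% of WT SLAMF6+ totals, and ribosomal protein RNA 9.31% to 10.7% and 18.5% to 19.8%.

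The libraries were primed on poly(A) tails, which mature snoRNAs do not carry, and kept no strand. Of the 95 snoRNAs, 77 could be placed on the same strand inside a GENCODE M21 gene (build GRCm38) whose symbol also names a deposited row. Only 32 of these lay wholly in introns, and the others overlapped an exon of some host transcript. Hosts named otherwise were missed. By position, Snora74a lies in the second Snhg4 row, Snora17 and the second Snora43 row in Snhg7, and Snord1a in Snhg16. These snoRNAs are counted below as having no host. A fragment of a mature snoRNA and a fragment of host RNA that still holds the snoRNA's sequence cannot be told apart here. The deposited values behave as length-corrected: the median of the smallest non-zero value per gene was 949 for genes of 50 to 75 nt, 78 for genes of 120 to 140 nt and 1 for genes of 1000 to 3000 nt. One sequenced fragment on a snoRNA was therefore worth many units (a median of 157.3 over the 85 snoRNAs with an estimate). An estimate of fragments (the value divided by what 1 fragment is worth at that length) is given beside some of their levels. Levels of host genes in UPM, being per length, can be set beside each other. An equal level of a short snoRNA and of a long host rests on very different numbers of fragments. Ratios of a snoRNA to its host are therefore compared only between libraries, not read as numbers of molecules.

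The snoRNA sequences on which the results turn are printed first, from GENCODE M21 on build GRCm38, 5′ to 3′. In the box C/D snoRNAs, capitals mark the motif TGATGA (box C, searched in the first 30 bases) and CTGA (box D, last 20 bases). Both motifs stood in 69 of 97 Snord genes of the annotation (71.1%) and in 35 of 49 members searched. Snord35a holds only the CTGA match. These 2 were present in all 5 WT CXCR6+ and no WT SLAMF6+ library:
Snord47 (chr1:161038082-161038158, plus strand, in Gas5): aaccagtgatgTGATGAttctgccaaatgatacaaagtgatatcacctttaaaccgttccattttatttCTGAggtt
Snord35a (chr7:45126346-45126435, minus strand, intron of Rpl13a): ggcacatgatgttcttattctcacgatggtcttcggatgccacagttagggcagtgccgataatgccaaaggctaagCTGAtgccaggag

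In the box H/ACA snoRNAs, capitals mark the last ACA within 8 bases of the 3′ end, which 38 of 40 Snora genes of the annotation hold (95%). Snora73b was the snoRNA with the most fragments, Snora73a is its near copy in the same host gene, Snora57 was the steadiest in the WT libraries, and Snora78 lies in Snhg9:
Snora73b (chr4:132352322-132352526, minus strand, intron of Snhg3): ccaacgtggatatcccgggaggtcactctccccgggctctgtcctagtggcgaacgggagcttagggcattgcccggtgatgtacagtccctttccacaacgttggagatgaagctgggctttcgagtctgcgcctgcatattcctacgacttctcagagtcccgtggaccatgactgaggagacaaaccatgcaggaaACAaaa
Snora73a (chr4:132352775-132352979, minus strand, in Snhg3): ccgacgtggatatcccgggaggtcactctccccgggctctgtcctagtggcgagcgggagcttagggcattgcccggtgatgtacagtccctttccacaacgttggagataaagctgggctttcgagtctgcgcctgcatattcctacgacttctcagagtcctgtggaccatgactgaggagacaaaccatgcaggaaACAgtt
Snora57 (chr19:8888538-8888685, minus strand, in no annotated host): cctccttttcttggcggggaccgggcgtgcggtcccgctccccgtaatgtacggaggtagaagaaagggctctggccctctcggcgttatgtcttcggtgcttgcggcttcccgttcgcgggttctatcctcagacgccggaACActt
Snora78 (chr17:24719676-24719803, minus strand, intron of Snhg9): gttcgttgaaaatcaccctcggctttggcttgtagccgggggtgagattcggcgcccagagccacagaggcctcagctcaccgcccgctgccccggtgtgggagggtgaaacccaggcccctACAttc
Snora73a and Snora73b were identical at 198 of 205 aligned bases (96.6%), so short reads may have been divided between them by the authors' estimation, and both lie in the region of Snhg3 that also overlaps Rcc1.

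WT CXCR6+ libraries held more kinds of snoRNA than WT SLAMF6+ libraries, and in about the same proportion more of the other short genes (below). The 5 WT CXCR6+ libraries had a value for 47, 45, 49, 50 and 41 of the 95 snoRNAs, and the 5 WT SLAMF6+ libraries for 36, 28, 27, 31 and 32, so the groups did not overlap. The DKO CXCR6+ library had 23 and the DKO SLAMF6+ library 36. Summed snoRNA levels were 1498 ± 398 UPM (SD, n = 5) in WT CXCR6+ and 700 ± 125 in WT SLAMF6+ libraries, and 475 and 789 in the DKO CXCR6+ and SLAMF6+ libraries. On the totals alone, without scaling factors, the snoRNA sums were 1432 to 2709 against 458 to 728 UPM. Fragments were summed over the 85 snoRNAs with an estimate, each value rounded to a whole number. They came to 100 to 122 per WT CXCR6+ library, 55 to 69 per WT SLAMF6+ library and 40 in each DKO library. The Snord3b rows and Snord80 had no estimate and are not in these sums.

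Both classes took part. Box C/D snoRNAs with a value numbered 23.2 ± 3.8 (SD, n = 5) in WT CXCR6+ and 14.8 ± 2.6 in WT SLAMF6+ libraries, and box H/ACA snoRNAs 23.2 ± 0.8 and 16.0 ± 2.0. More WT CXCR6+ than WT SLAMF6+ libraries had a value for 54 snoRNAs, fewer for 18, and equally many for 23. Other genes under 150 nt that are no snoRNA of this set differed between the WT groups in about the same proportion. Of 913, between 122 and 188 had a value in a WT CXCR6+ library and between 93 and 120 in a WT SLAMF6+ library. In the DKO libraries 130 and 163 had one. The WT CXCR6+ and WT SLAMF6+ means were 163.6 and 108.6 for these genes and 46.4 and 30.8 for the snoRNAs. Malat1, a long nuclear RNA, took 0.888% to 1.18% of WT CXCR6+ totals and 0.187% to 0.257% of WT SLAMF6+ totals. The part of these in the snoRNA counts was not tested.

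**Figure D1:**
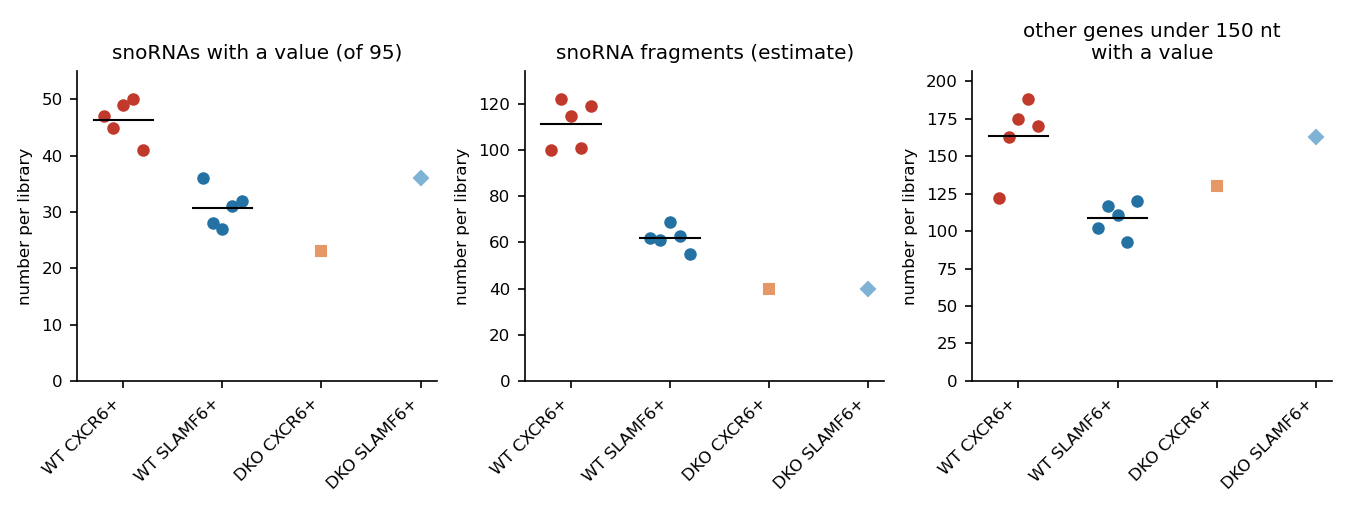
Numbers of snoRNAs with a value, of estimated fragments (over the 85 snoRNAs with an estimate), and of other genes under 150 nt with a value. The y axes give the number per library and the x axes the 4 groups. Points are libraries, and black bars are means of the WT groups (n = 5). The WT CXCR6+ points lie above all WT SLAMF6+ points in all 3 panels, at 41 to 50 against 27 to 36 snoRNAs.

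Most snoRNA values rested on very few fragments. Of 445 non-zero snoRNA values, 373 could be given an estimate of fragments. Of these, 220 came to under 1.5 fragments, 71 to between 1.5 and 2.5, and 30 to more than 5.5. Only 7 snoRNAs had a value in all 12 libraries, while 46 had one in at most 3 and 23 in a single library. An absent value for such a snoRNA is a level below 1 fragment, not evidence of absence.

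Host genes were compared next, with limma on log2(level + 1) across the 14507 genes at 1 UPM or more in at least 5 libraries; a gene was called at a Benjamini-Hochberg adjusted p under 0.05. In WT CXCR6+ against WT SLAMF6+ cells, 21.9% of all genes tested were called higher and 33.5% lower. Of the 19 host genes 17 were tested, 9 were called higher and 6 lower, and their median log2 difference was 0.24 beside -0.13 over all genes. These calls depend on scaling: the median over all genes was -0.01 with median-ratio scaling and 0.29 with library totals alone, where 5869 genes were higher and 2086 lower in place of 3171 and 4860, and with totals alone 10 hosts were called higher and 1 lower.

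Gas5, the host of many box C/D snoRNAs and a transcript known to accumulate when cell growth stops, was the most abundant host in every library. It lies on chr1:161034422-161038539 (plus strand) and overlaps Zbtb37 on the other strand, whose reads cannot be told from its own. Its levels were 1111, 1067, 1078, 1375 and 1334 UPM in WT CXCR6+ and 1612, 1622, 1668, 1840 and 1915 in WT SLAMF6+ libraries. All WT SLAMF6+ values were the higher ones under this scaling. The log2 difference was -0.54 ± 0.09 (SE; limma adjusted p = 0.000125), but with library totals alone it was -0.06 (adjusted p = 0.509), and the levels then overlapped, at 1263 to 1600 against 1391 to 1592 UPM.

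Measures within a library carry no scaling. Gas5 made up 48.3% to 52.0% of the summed host level in WT CXCR6+ libraries, 56.5% to 59.5% in WT SLAMF6+ libraries, and 44.5% and 46.9% in the DKO CXCR6+ and SLAMF6+ libraries. The WT groups did not overlap. The host sum itself was 2168 to 2646 against 2756 to 3220 UPM with scaling and 2541 to 3078 against 2377 to 2677 without, so its direction turned with the scaling.

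Snhg20, Snhg7, Snhg17 and the second Snhg4 row were called higher in WT CXCR6+ cells in every scaling and other setting that tested them. So were Snhg3, Snhg9 and Snhg14, described below. Snhg20 (chr11:117076008-117078955, plus strand) stood at 73.5, 90.0, 66.7, 74.9 and 81.6 UPM in WT CXCR6+ and at 40.2, 37.1, 41.0, 34.8 and 34.6 in WT SLAMF6+ libraries. Every WT CXCR6+ library lay above every WT SLAMF6+ library, with a log2 difference of 1.02 ± 0.10 (limma adjusted p = 8.21e-07). Per 100 units of Gas5 in the same library, Snhg20 had 5.45 to 8.44 units in WT CXCR6+ and 1.81 to 2.49 in WT SLAMF6+ libraries.

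Snhg7 (chr2:26637176-26640244 in RefSeq, GRCm38.p6) stood at 51.5, 53.4, 66.1, 54.8 and 58.8 UPM in WT CXCR6+ and at 23.4, 19.4, 29.8, 25.2 and 30.3 in WT SLAMF6+ libraries. The groups were again apart, by 1.13 ± 0.13 on the log2 scale (limma adjusted p = 3.27e-06). Snhg17 (chr2:158353700-158361580, minus strand) ran from 45.03 to 55.8 and from 22.3 to 34.7 UPM, a log2 difference of 0.86 ± 0.12 (limma adjusted p = 3.37e-05). The table has 2 rows for the Snhg4 locus, and the division of fragments between them is uncertain. The row named Snhg4 was lower in WT CXCR6+ cells (log2 -0.89, limma adjusted p = 0.00396) at 1.90 to 5.64 UPM, and with library totals alone it was no longer called (log2 -0.50, adjusted p = 0.0795). The far more abundant second row, ENSMUSG00000117869.2, was higher, at 71.3 to 103 against 24.7 to 39.8 UPM (log2 1.37, limma adjusted p = 8.52e-07).

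Snhg3, the host of Snora73a and Snora73b (chr4:132348014-132353686, minus strand), stood at 147, 103, 131, 148 and 154 UPM in WT CXCR6+ and 71.5, 77.3, 90.7, 116 and 100 in WT SLAMF6+ libraries. The ranges met, since the lowest WT CXCR6+ library lay below the highest WT SLAMF6+ one, and the log2 difference was 0.59 ± 0.14 (limma adjusted p = 0.00233). It overlaps Rcc1 and Gm17300, so its level may hold their reads. Among low hosts, Snhg9, Snhg14 and Snhg10 were also called higher, with log2 differences of 1.06, 0.94 and 0.44. Snhg9 overlaps the ribosomal protein gene Rps2 on the other strand, and Snhg14, the long transcript of the Prader-Willi region, overlaps Ube3a. Snhg5 was called higher at only 0.24 (limma adjusted p = 0.033); the calls of Snhg5 and Snhg10 were lost in 12 and 13 of the alternatives, mostly when a library was left out.

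Snhg6, Snhg12, Snhg8 and Snhg1 were called lower in WT CXCR6+ cells, together with Gas5. Snhg6 (chr1:9941959-9944118, minus strand, overlapping Mcmdc2) stood at 160, 162, 120, 136 and 144 UPM in WT CXCR6+ and at 216, 236, 247, 250 and 286 in WT SLAMF6+ libraries. Its difference of -0.78 ± 0.10 (limma adjusted p = 1.4e-05) was the only one of these still called with library totals alone (log2 -0.30, adjusted p = 0.0233). Snhg12, host of Snora44, Snora61 and Snord99, ran from 50.9 to 71.2 and from 90.7 to 118 UPM (log2 -0.72, limma adjusted p = 5.31e-05). With library totals alone it was -0.25 and no longer called. Snhg8 was lower by -0.53 and Snhg1 by -0.42 on the log2 scale. With totals alone they were -0.05 and 0.06, so the sign of Snhg1 turned. Snhg15 and Snhg16 were not called, at -0.27 and -0.06.

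**Figure D2:**
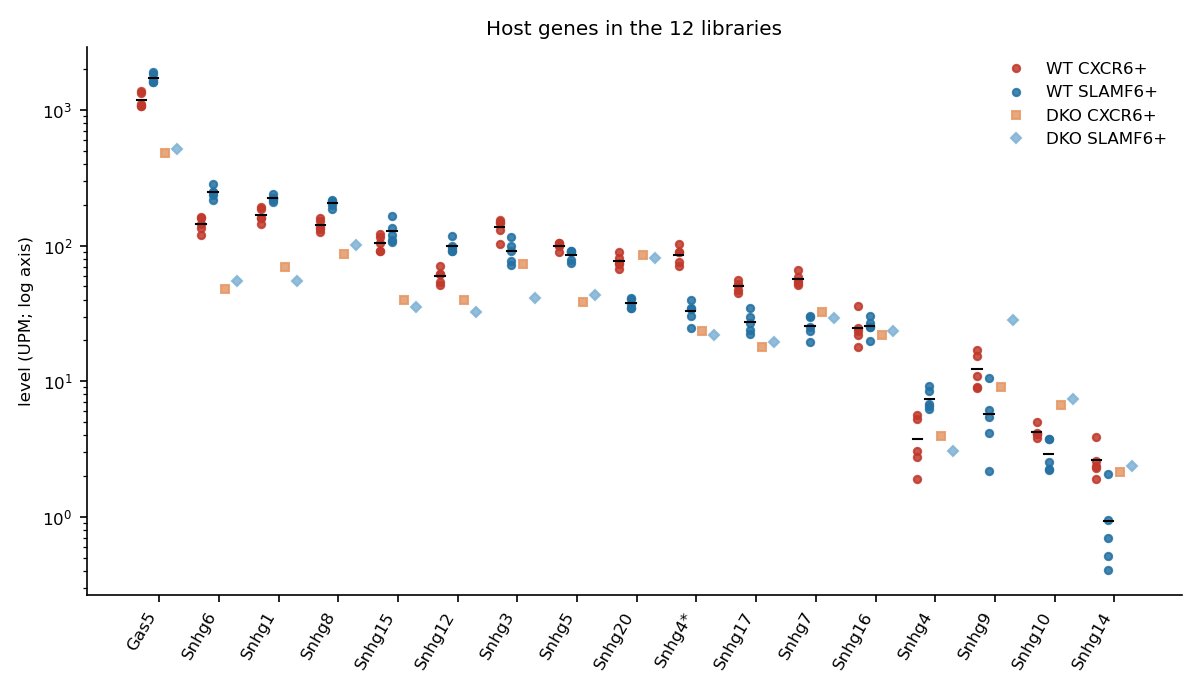
Levels of the 17 tested host genes in each library (y axis: level in UPM with trimmed-mean scaling, log axis; x axis: genes ordered by their mean in WT SLAMF6+ cells; Snhg4* is the second Snhg4 row; black bars: means of the WT groups, n = 5). Gas5 is highest in every library, and its DKO points at 482 and 512 lie below all WT points.

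snoRNAs were read against the same background. The filter left 20 box C/D and 23 box H/ACA snoRNAs; a snoRNA that passed it mainly through its WT CXCR6+ values had to differ, so the counts and calls are a description. In WT CXCR6+ against WT SLAMF6+ cells 8 were called higher (Snord47, Snord35a, Snora73b, Snora78, Snora41, Snora30, Snora33 and Snora9) and 0 lower, beside 21.9% and 33.5% of all genes; at an unadjusted p under 0.05 the numbers were 11 and 0. Of the 8, 5 had a value in no WT SLAMF6+ library (Snord47, Snord35a, Snora41, Snora30 and Snora33), and Snora78 in 1. Without WT CXCR6+ replicate 2, Snord3a was called lower (log2 -1.50). The calls of Snora9, Snora30 and Snora33 were lost in 13, 7 and 7 of the 26 alternatives. The filter removed Snord47, Snora41 and Snora33 in 10 of them each, Snora30 in 8, Snora78 in 2 and Snora9 in 1, so they were not tested there. Counting those as not called, the number called higher ranged from 3 to 7 when libraries were left out. It was 3 without both libraries numbered 4, 4 without WT CXCR6+ replicate 1, 4 without WT CXCR6+ replicate 4, and 5 without WT CXCR6+ replicate 3, WT SLAMF6+ replicate 2 or WT SLAMF6+ replicate 4.

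Snora73b, a member of the U17 family that acts in ribosomal RNA cleavage rather than pseudouridylation, was the snoRNA measured with the most fragments. Its levels were 67.8, 87.3, 115, 70.3 and 117 UPM in WT CXCR6+ libraries, about 25.0, 36.0, 45.5, 31.0 and 46.8 fragments. They were 35.8, 71.8, 22.6, 46.6 and 36.8 UPM in WT SLAMF6+ libraries, about 15.6, 22.5, 9.65, 19.7 and 15.4 fragments. Only WT SLAMF6+ replicate 2 reached into the WT CXCR6+ range, and the log2 difference was 1.14 ± 0.28 (limma adjusted p = 0.0061). Its host Snhg3 differed by 0.59, and the ratio of Snora73b to Snhg3 overlapped between the groups, at 46.1 to 87.3 and 24.9 to 92.8 per 100 units of Snhg3. Its near copy Snora73a, at 0.767 to 27.3 and 2.60 to 20.7 UPM, was not called (log2 -0.41 ± 0.80).

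Snord47, which lies in Gas5, stood at 233, 62.5, 50.7, 33.3 and 64.1 UPM in the WT CXCR6+ libraries and was listed at 0 in all 5 WT SLAMF6+ and both DKO libraries. The value in WT CXCR6+ replicate 1 was the highest, but the estimate gives it only 2.92 fragments, and 0.498 to 0.877 in the others. Snord47 had a value in exactly the 5 libraries that the filter asks for, all WT CXCR6+, so it passed only through the group where it is high, and neither its p nor a fold is given. The other snoRNA placed in Gas5, Snord78, had a value in 1 library.

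Snord35a, in an intron of the ribosomal protein gene Rpl13a, stood at 229, 68.2, 34.7, 29.0 and 37.0 UPM in WT CXCR6+ libraries, about 5.89, 1.97, 0.963, 0.893 and 1.04 fragments. It was listed at 0 in all WT SLAMF6+ libraries and stood at 37.4 and 98.7 UPM in the DKO CXCR6+ and SLAMF6+ libraries. The WT groups did not overlap, but the 5 WT CXCR6+ values alone took it past the filter, so no p is given for that difference. Rpl13a itself was lower in WT CXCR6+ cells (log2 -1.39, limma adjusted p = 2.16e-08). Rpl13a's other members, Snord32a and Snord33, did not pass the filter.

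Snora78 stood at 24.8, 9.38, 9.64, 16.1 and 9.98 UPM in WT CXCR6+ libraries and at 9.25 in WT SLAMF6+ replicate 4 alone, with 0 in the other WT SLAMF6+ and both DKO libraries. The difference was 3.13 ± 0.67 on the log2 scale, rested on 0.956 to 2.28 fragments a library and has the same limit as that of Snord35a. Its host Snhg9 was higher in the same direction. Snora41, in the elongation factor gene Eef1b2, had values in 4 of 5 WT CXCR6+ libraries, no WT SLAMF6+ library and the DKO CXCR6+ library. It passed the filter only through these CXCR6+ values and could only lie above the WT SLAMF6+ libraries at 0, so no fold is given. Eef1b2 was lower in WT CXCR6+ cells, by -1.33.

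Snora57 was the steadiest snoRNA. Its levels were 30.7, 23.6, 30.4, 30.5 and 38.5 UPM in WT CXCR6+ and 35.5, 26.2, 38.2, 23.1 and 25.1 in WT SLAMF6+ libraries, about 3.27 to 6.50 fragments each. The WT groups overlapped throughout (log2 0.06 ± 0.16, limma adjusted p = 0.76). Snora65 in Rpl12, Snora31 in Tpt1, Snora81 in Eif4a2 and Snora73a also had log2 differences between -0.41 and 0.05, with standard errors of 0.61 to 0.91, which leave room for large differences either way. The sequence with the highest summed value, Snord104, had a value in 6 libraries only, and Snord118, the U8 RNA needed for large-subunit ribosomal RNA, in 11 (log2 -0.50 ± 0.86). Snord13, a guide of ribosomal RNA acetylation, had the lowest WT difference among box C/D snoRNAs, -0.90 ± 1.76.

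**Figure D3:**
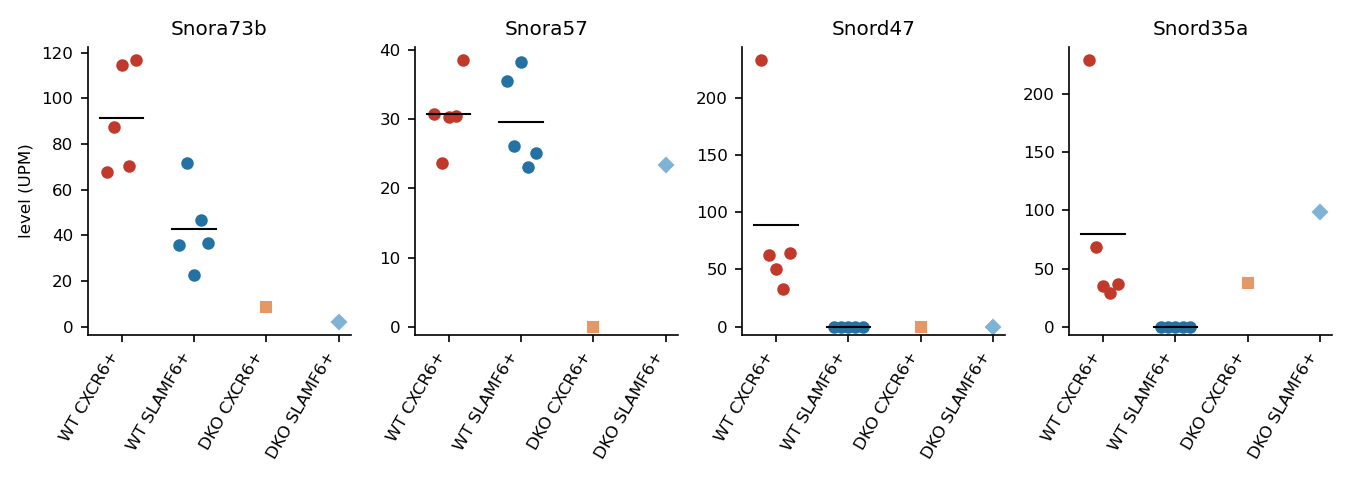
Levels of Snora73b, Snora57, Snord47 and Snord35a in each library (y axes: level in UPM with trimmed-mean scaling; x axes: the 4 groups; points: libraries; black bars: means of the WT groups, n = 5). Snord47 and Snord35a are at 0 in all WT SLAMF6+ libraries, and Snora57 is at 0 in the DKO CXCR6+ library alone.

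**Figure D4:**
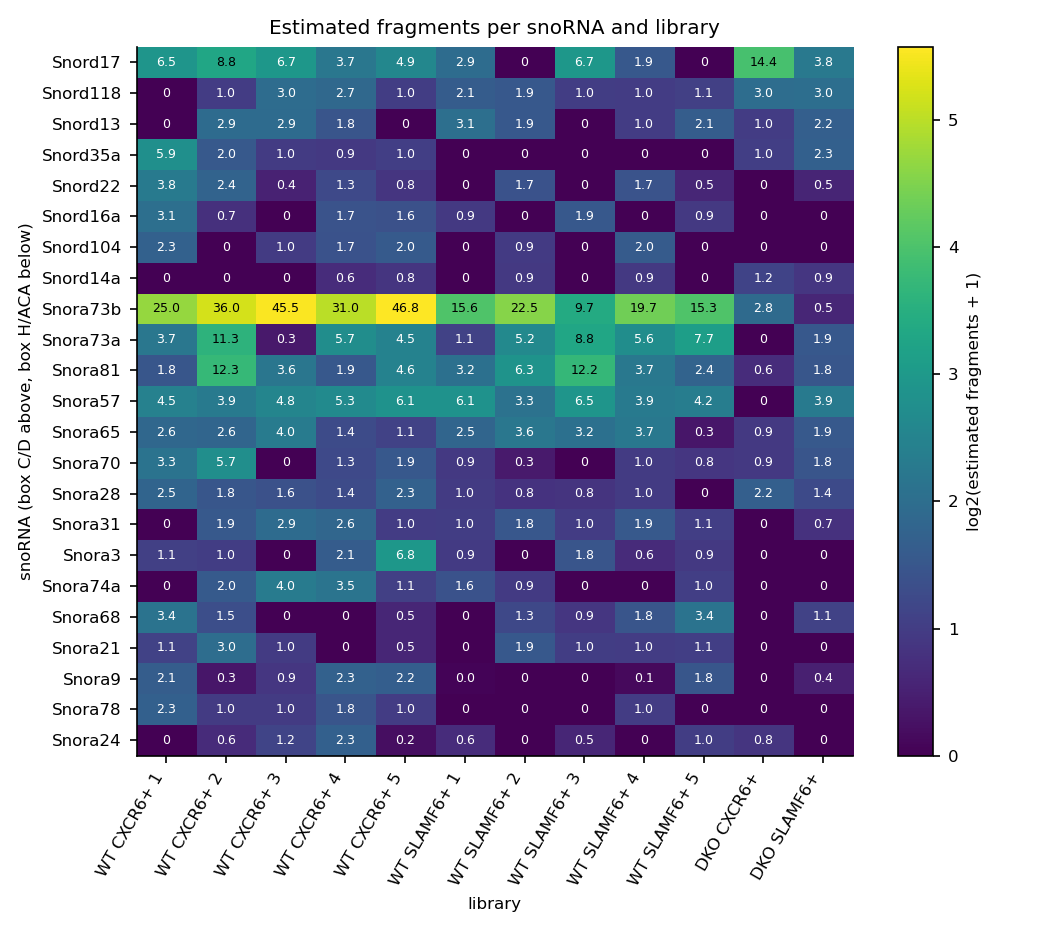
Estimated fragments for the 23 snoRNAs with a value in at least 6 libraries and an estimate (rows) in the 12 libraries (columns); colour is log2(estimated fragments + 1) and each cell gives the estimate. Snora73b has 9.65 to 46.8 in the WT libraries, while most other cells hold fewer than 5.5.

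Hosts and their snoRNAs were then set side by side. Of the 44 protein-coding hosts of these snoRNAs, all tested, 32 were lower and 7 higher in WT CXCR6+ than in WT SLAMF6+ cells, beside 33.5% lower and 21.9% higher over all genes. Their median log2 difference was -0.98 beside -0.13 over all genes. Many of them encode ribosomal proteins: Rpl39 was lower by -1.55 and Rps13 by -1.65 on the log2 scale (limma adjusted p = 1.49e-09 and 2.1e-09). Among tested pairs, 20 snoRNAs had a host called lower, and of these 4 were called higher, beside 21.9% of all genes, and 16 were not called. The 4 were Snord47 in Gas5, Snord35a in Rpl13a, Snora41 in Eef1b2 and Snora33 in Rps12. Of the 7 in these pairs with a host called higher, 3 were called higher themselves: Snora73b in Snhg3, Snora78 in Snhg9 and Snora30 in Gm42715. Snora30 and the 4 above were at 0 in every WT SLAMF6+ library. They could therefore only lie higher in WT CXCR6+ cells, and these counts are a description, not a test of snoRNAs against hosts. Snora74a, tested but left out of the pairs, was not called (log2 1.04 ± 0.79). The second Snhg4 row, in which it lies, was called higher.

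**Figure D5:**
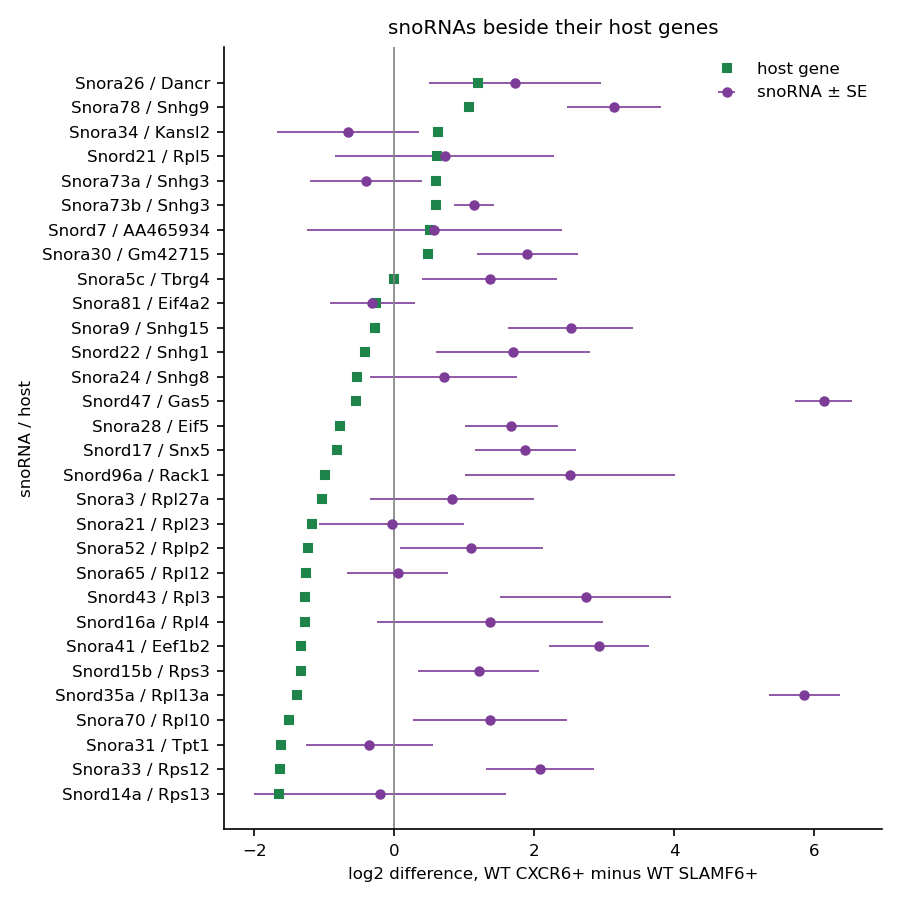
log2 difference between WT CXCR6+ and WT SLAMF6+ cells (x axis) for tested snoRNAs (purple circles, bars ± SE) and their host genes (green squares). Shown are the tested snoRNAs with a host matched by symbol, except 1 pair. Pairs are ordered by the host's difference. The squares of the hosts called lower lie left of 0. None of their snoRNAs was called lower. Those called higher were at 0 in all WT SLAMF6+ libraries, so their circles could only lie right of 0.

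The proteins that carry and mature snoRNAs did not move one way; the counts below stand beside 33.5% of all genes lower and 21.9% higher. Of the 5 box C/D particle proteins, Nop56 was higher in WT CXCR6+ cells (317 ± 59.9 against 209 ± 34.3 UPM, SD, n = 5; log2 0.60, limma adjusted p = 0.00233) and Snu13 lower (log2 -0.75, limma adjusted p = 1.1e-05). Fibrillarin (Fbl), Nop58 and Rrp9 were not called. Of the 4 box H/ACA proteins, Gar1 was higher (log2 0.84) and Nop10, Nhp2 and dyskerin (Dkc1) lower (-0.84, -0.81 and -0.35). Of 9 tested assembly factors 6 were lower and 0 higher, among them Nufip1 (-1.06), Ruvbl1 (-0.54) and Ruvbl2 (-0.48). Of 14 debranching and trimming genes 7 were lower and 2 higher: the deadenylase Parn (-0.72) and the exosome subunits Exosc3 (-0.72) and Exosc4 (-0.68) had the largest of the former differences, Dis3 (0.77) and Tent4b (0.71) made up the latter. Of 10 nonsense-mediated decay genes 5 were higher, with the helicase Upf1 at 0.95 and its kinase Smg1 at 0.77, and 1, Smg8, was lower at -0.70. One of 9 Cajal body RNA rows was tested and it was not called. With library totals alone the median gene lies at 0.29 in place of -0.13, so smaller negative values here can turn.

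The DKO libraries were compared with the WT libraries of the same subset. Each DKO group is 1 library, assumed to vary like the WT libraries, so its difference from the WT cannot be told apart from a difference of that one library. In CXCR6+ cells 19.2% of all genes were called higher and 23.7% lower in DKO. Of 17 tested hosts 11 were called lower and 0 higher. In SLAMF6+ cells 16.2% of all genes were called higher and 29.8% lower. There, 9 hosts were called lower and 3 higher.

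Gas5 stood at 482 and 512 UPM in the DKO CXCR6+ and SLAMF6+ libraries, below all 10 WT libraries. The log2 differences were -1.298 ± 0.15 in CXCR6+ (limma adjusted p = 7.41e-06) and -1.75 ± 0.15 in SLAMF6+ cells (limma adjusted p = 3.27e-07). Snhg6 was lower by -1.56 and -2.15, Snhg1 by -1.25 and -2.02, Snhg15 by -1.37 and -1.80, and Snhg5 by -1.35 and -0.96. The 8 hosts called lower in both subsets were these 5 with Snhg3, Snhg8 and Snhg12. In both subsets the DKO library of all 8 stood below the range of the WT libraries. Snhg7, Snhg17 and the second Snhg4 row were also called lower in CXCR6+ cells (log2 -0.78, -1.43 and -1.82), and Snhg4 in SLAMF6+ cells (log2 -1.04, a call lost in 9 alternatives). Library size computed without globin genes called the same number of members in SLAMF6+ cells, 19. Whether erythroid RNA in that library has a part in the other differences was not tested.

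Other hosts did not fall. Snhg20 stood at 85.6 and 81.6 UPM in the DKO libraries, within the WT CXCR6+ range and above the WT SLAMF6+ range (log2 1.103, limma adjusted p = 8.57e-05 in SLAMF6+). Snhg16, at 21.9 and 23.5 UPM, lay within the range of both WT groups. Snhg10 and Snhg9 were called higher in DKO SLAMF6+ cells, at log2 1.13 and 2.27. Per 100 units of Gas5, Snhg20 had 17.8 and 15.9 units in the DKO libraries against at most 8.44 in any WT library, a ratio that no scaling touches.

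The subset difference itself was tested between genotypes. In this interaction 19% of all genes were called, and 7 of 17 hosts and 3 of 43 snoRNAs. One of the 3, Snord47, is at 0 in 3 of the 4 groups, so its call only repeats its WT CXCR6+ values. Snord35a is at 0 in all WT SLAMF6+ libraries and Snora57 in the DKO CXCR6+ library. Their values elsewhere rest on few fragments, so nothing is read from their calls. Snhg20 differed by log2 1.02 between subsets in WT, while its DKO levels were 85.6 and 81.6 UPM (interaction -0.95, limma adjusted p = 0.0128). Snhg7, Snhg17, Snhg9 and the second Snhg4 row had interactions of -0.996, -0.97, -2.61 and -1.28. Snhg1 and Snhg12 had interactions of 0.76 and 0.996. In these hosts the 2 DKO libraries lay closer together than the WT groups, except Snhg9, at 9.07 and 28.5 UPM.

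Among snoRNAs, Snora73b was low in both DKO libraries, at 8.73 and 1.95 UPM or about 2.82 and 0.512 fragments, against 22.6 to 117 in the 10 WT libraries. The log2 differences were -3.21 ± 0.49 (limma adjusted p = 0.00038) and -3.79 ± 0.49 (limma adjusted p = 0.000106). Per 100 units of Snhg3 it had 11.9 and 4.71 units in the DKO libraries against 24.9 to 92.8 in the WT ones. Snora57 was listed at 0 in the DKO CXCR6+ library (log2 -4.97). It stood at 23.4 UPM, about 3.94 fragments, in the DKO SLAMF6+ library, which lies within the WT range (log2 -0.30). The WT libraries held only a few fragments of Snora57 each, and the fit does not carry the counting noise of so few. A 0 in 1 library therefore says little here.

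Snord47 and Snora78 were listed at 0 in the DKO CXCR6+ library; having passed the filter through their WT CXCR6+ values of a few fragments, they could only lie below that group at 0, and nothing is read from their calls. In the DKO SLAMF6+ library Snord35a and Snora33 were called higher, on about 2.26 and 1.15 fragments. Both were at 0 in all WT SLAMF6+ libraries, so any value had to lie above that group, and nothing is read from these calls either. Snora33 passed the filter only with that library's value. The Snord3b1, Snord3b2, Snord3b3 and Snord3b4 rows, copies of the U3 RNA of ribosomal RNA cleavage, had the same values in every library and count as 1 measurement. They stood at 17.5 and 14.1 UPM in the DKO libraries and at 3.08 to 7.63 in the WT ones. The log2 differences were 1.61 in CXCR6+ and 1.296 in SLAMF6+ cells, and no estimate of fragments could be made for them. Other Snord3 rows did not follow. Snord3a stood at 0 and 2.225 UPM in the DKO libraries and at 0 to 8.85 in the WT ones (log2 -0.66 and 0.17). Snord3b-ps2 stood at 2.27 and 0 in the DKO libraries and at 0 to 3.75 in the WT ones. How fragments were divided among these similar rows was not tested. Snord17, in Snx5, reached 26.5 UPM or about 14.4 fragments in the DKO CXCR6+ library, above the WT range of 0 to 15.2, and was not called (log2 1.27 ± 1.25).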

How the data were processed

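The RNA was measured as SMART-Seq2 cDNA, tagged with Nextera XT and read as 38-base pairs on a NextSeq 500, per the labels' protocols. STAR 2.7.7a, RSEM 1.3.3 and the mm10 build are listed in the submitters' processing notes. The annotation counted on is not given in the sources used here. As processed data, the authors deposited 1 table of whole numbers per gene and library. Although the notes point to RSEM, the deposited values scale with transcript length and are not fragment counts, so they were treated as a score, and a count model planned for them was replaced by limma 3.58.1 (R 4.3.3).

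Values were divided by library totals and trimmed-mean factors (trims of 30% and 5%), filtered at 1 UPM (units per 1000000) in 5 libraries, and fitted as log2(level + 1) over all 4 groups with a variance trend and the robust setting (8 residual degrees of freedom). A fold change on this scale understates low genes. P-values were adjusted over all genes by Benjamini-Hochberg. The value of 1 fragment at each length was estimated from the 40 values nearest in length among rarely seen genes of a single transcript (at most 3 libraries); the estimates are approximate. In simulated data for WT CXCR6+ against WT SLAMF6+ (12451 genes), changes were placed only in genes with a mean level well above the filter. Noise was drawn on the log scale, without sampling of fragments. Of the changed genes, 98 of 100 at 2-fold and 98 of 100 at 4-fold were recovered, with 7 false calls. This recovery does not extend to low hosts or to snoRNAs of few fragments.

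Hosts came from GENCODE M21: 85 snoRNAs matched. Members, gene lists and tests were chosen with earlier results of these data known. Named are all hosts, snoRNAs matched by symbol to Gas5 or an Snhg gene, and the 15 others with the highest sums. Also named are the 6 highest and 6 lowest WT differences and the leading genes of 7 lists. Not each is described. Deviations of same-numbered WT libraries correlated at -0.06 to 0.06, and numbers were not taken as pairs, though the labels do not say whether a shared number means the same animal. Left out were 16 rows below the minimum. Values of 1 host gene are not reported here. Alternatives covered scaling, filter, pseudocount, library size, groups fitted, variance model, block and left-out libraries.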

Additional observations from a re-analysis of the deposited data

Results flagged for a closer look

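Among groups of 5 WT libraries, 4 values stood apart from the rest of their group by Dixon's test; chance flags about 1 in 20 groups, and 61 groups were examined. WT CXCR6+ replicate 1 held Snord47 at 232.6 UPM (deposited units per 1000000 of the scaled library total), where the other 4 libraries had 33.3 to 64.1, and Snord35a at 228.9, where the others had 29.0 to 68.2. The same library was highest for Snhg10, at 4.957 against 3.84 to 4.12. WT CXCR6+ replicate 2 held Snora81 at 44.16 against 6.32 to 16.8.

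The subset difference differed between genotypes in the interaction test for 10 members, each with 1 DKO library per subset. On the log2 scale it was 0.7632 for Snhg1, 0.9958 for Snhg12, -0.9742 for Snhg17, -0.9521 for Snhg20, -1.277 for the second Snhg4 row, -0.996 for Snhg7 and -2.613 for Snhg9. For the snoRNAs Snora57 and Snord35a it was -4.669 and -7.231. Snora57 is at 0 in the DKO CXCR6+ library and Snord35a in all WT SLAMF6+ libraries, with few fragments elsewhere, so neither is read as a difference between genotypes. For Snord47 it was -6.135, which only repeats the WT CXCR6+ values that took it past the filter, since its other groups are at 0, and is no test of a difference between genotypes. The values of Snora57, Snord35a and Snord47 depend on the pseudocount because some of their groups are at 0.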

How the results depend on the processing

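Of the called results for single members (each gene in each comparison), 71 in number, 36 were tested and kept direction and call under every alternative; 12 kept them where tested but were removed by the filter under 1 or more, and 23 lost the call or turned. Over all alternatives 87 values were not tested; of the 1701 tested, 95 lost the call and 1 turned: Snhg1 in WT CXCR6+ against WT SLAMF6+ cells, at 0.06309 with library totals alone. With totals alone the number of hosts called lower in that comparison fell from 6 to 1. The number of snoRNAs called higher fell from 8 to 5 with no filter, which tests more genes, and to 4 with the filter at 10 UPM, which removes low snoRNAs. Leaving out libraries gave 3 to 7 snoRNAs called higher and 0 to 1 called lower, with those the filter removed, such as Snord47 when any WT CXCR6+ library is left out, counted as not called. With the replicate block, 23 members were called in the WT comparison, the same number as without it. Deviations of same-numbered libraries correlated at -0.06 to 0.06, and 2 of 5 libraries correlated best with their own number. That cannot settle whether a shared number means the same animal. Under the block Snhg10 lost its call (limma adjusted p = 0.0764) and no other called member did. Snora52 gained a call (log2 1.1, limma adjusted p = 0.0338). Blocks could not be applied to DKO comparisons, since both DKO libraries share a number that no WT library has. Members summing to at least 200 gave 22 calls. DESeq2 and voom were not run because the values are not counts. Depth limits the snoRNAs: at 1 to 2 fragments a library, a value of 0 says little.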
